A study of Bos taurus with 6 samples.

Results

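The endoplasmic reticulum (ER) folding and unfolded protein response (UPR) genes were taken as a list of 33 named genes from the 23015 rows of gene symbols counted in the longissimus thoracis muscle (LT) of 6 Korean cattle steers. Members were chosen by name, as ER chaperones, oxidoreductases, stress sensors with their transcription factors, feedback regulators, degradation genes and translocation genes, and each of the 33 names was found in 1 row. Of these, 32 had enough counts to be tested, and TRIB3 was left out by the filter on low counts.

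All 6 animals were Hanwoo steers raised conventionally on commercial feed, and none received a treatment. The high-NFMP group (steers 3-8, 10-8 and 10-9, aged 32.5, 33.8 and 34.5 months) and the low-NFMP group (steers 3-1, 3-3 and 10-16, aged 37.8, 33.7 and 35.4 months) were set apart by the number of fine marbling particles in a photographed rib eye section. Each library came from 1 steer and held between 16283873 and 17192750 counts, made with a 3′ mRNA kit. Values by steer are given below in the order just listed, as counts normalized to the mean effective library size of 16799032. The groups also differed in marbling score and in rib eye area according to the study. Particle number, total marbling and rib eye area therefore cannot be told apart here.

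The ER folds secreted and membrane proteins. When unfolded proteins build up in it, 3 sensors in its membrane start the UPR: ATF6 is cut to release a transcription factor, IRE1 (gene ERN1) splices the XBP1 mRNA, and PERK (gene EIF2AK3) slows translation while ATF4 is still translated, which in turn induces DDIT3 (CHOP). In muscle fibres the same membrane system stores calcium, and in fat cells it is the site where lipid droplets begin. Cutting of ATF6, splicing of XBP1 and phosphorylation by PERK are not seen in counts per gene, so the comparison below is of mRNA amounts alone. In whole tissue, fewer cells of a type and less RNA per cell cannot be told apart.

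Skeletal muscle fibre markers were abundant in every library, with 8 of 8 listed markers found and summed levels between 1681600 and 2107100 normalized counts. Summed adipocyte markers (6 of 6 found) lay between 3283.5 and 9179.1 in the high-NFMP group and between 3052.9 and 4315.9 in the low-NFMP group, the highest being steer 3-8. All 6 of these markers had a log2 fold change above 0 and none passed the threshold. Fibroblast markers (6 of 6 found) lay between 12086 and 15264 against 9457.8 and 12467. Endothelial markers (4 of 4 found) lay between 811 and 1155 against 794 and 1030, and macrophage markers (4 of 4 found) between 190 and 453 against 229 and 437, with AIF1 alone of them past the threshold. Plasma cells are rich in ER. Their markers were found for 4 of 4 names with few counts, and only 1 of the 4 had enough to be tested. They summed to 26.3, 36.7 and 48.1 (high NFMP) against 23.0, 27.8 and 23.2 (low NFMP), the highest being steer 10-9. The part of these cell types in the results below was not tested.

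Of the 32 tested genes, only ERO1B, an ER oxidase that passes oxidizing power to protein disulfide isomerases, differed at the study's threshold (fold change above 2 and an unadjusted p below 0.05, here from the quasi-likelihood test of edgeR). It fell in the high-NFMP group. Among all 15039 tested genes 3.9% passed this threshold, 2.53% being higher and 1.36% lower, so 1 of 32 was near the background. At an unadjusted p below 0.05 alone, 3 members were lower (ERO1B, HSP90B1 and EIF2AK3) and none was higher, whereas 11.5% of all tested genes passed in either direction, 5.73% being higher and 5.74% lower. No member had an adjusted p below 0.05 by edgeR, a level that 0.685% of all tested genes reached. DESeq2 gave 0 members at that adjusted p and 3 at an unadjusted p below 0.05, and limma after quantile normalization gave 0 and 4. The log2 fold changes of the 32 genes ran from -1.11 to 0.57 with a median of -0.09, beside a median of 0.02 for all tested genes, and 21 of the 32 were below 0, against 48.1% of all tested genes.

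The depth allowed most members a bound. For 25 of the 32 genes the 95% interval of the log2 fold change lay within -1 to 1, that is, inside a change of 2-fold in either direction. The share over all tested genes was 57.3%. The exceptions were ERO1B, HSP90B1, EIF2AK3, CRELD2, PDIA4, SDF2L1 and SEC61A1. Within a group the members varied with a median coefficient of variation of 18.3% in the high-NFMP and 14.4% in the low-NFMP steers, beside 22.9% and 18.0% over all tested genes. In 26 of the 32 genes the highest steer had less than 2 times the count of the lowest, the narrowest range being that of SYVN1 (1.16 times) and the widest that of ERO1B (4.10 times).

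**Figure D1:**
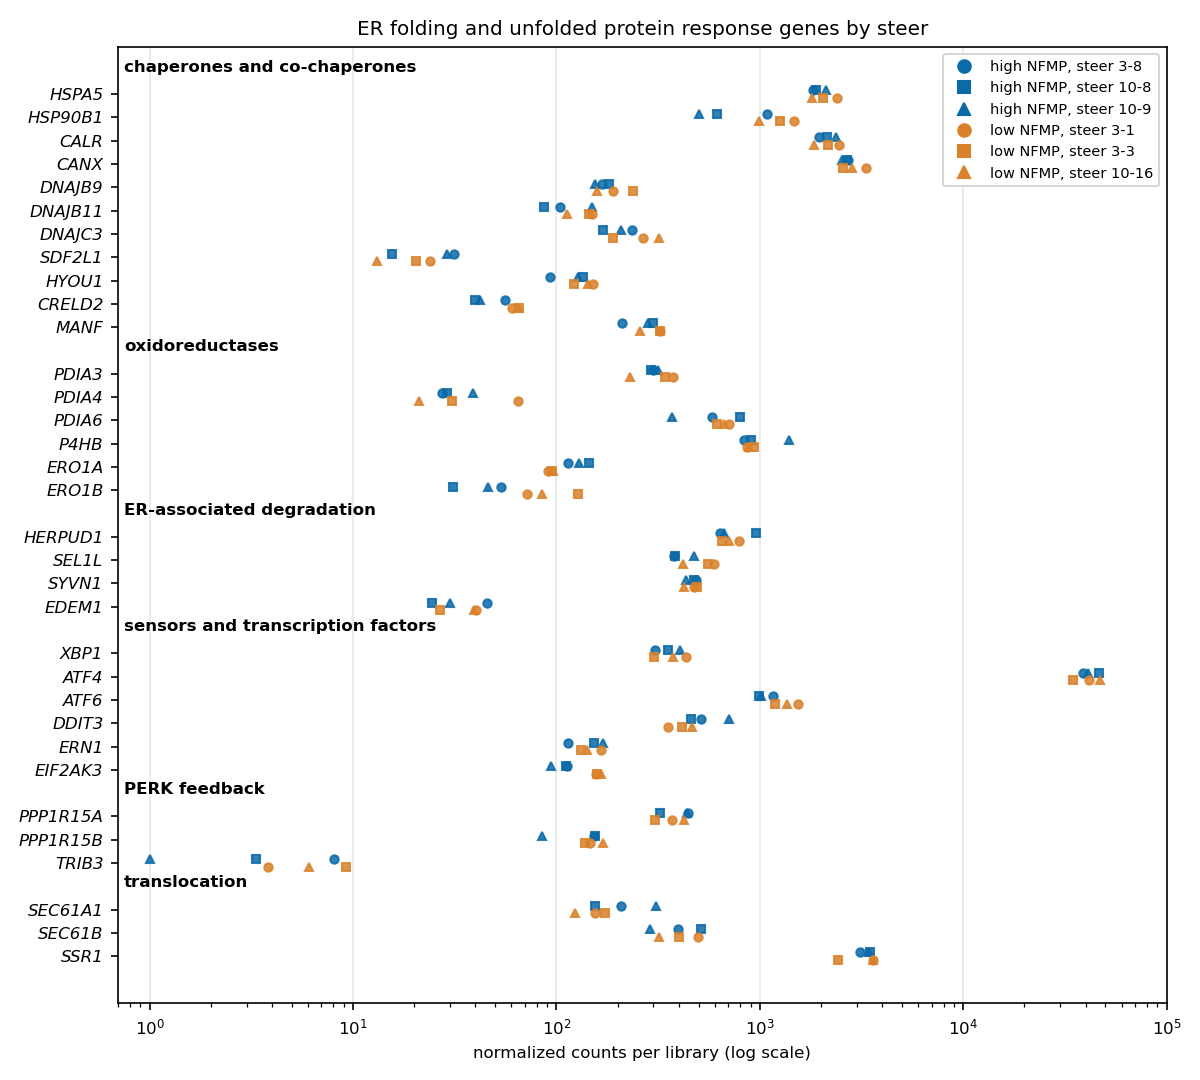
Normalized counts (log scale) of the 33 genes in each steer, grouped by role, with high-NFMP steers in blue above and low-NFMP steers in orange below for each gene. ERO1B, EIF2AK3, ATF6, CRELD2 and ERO1A separate the groups without overlap, and ATF4 lies far to the right, between 34622 and 46969.

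Among the oxidoreductases, ERO1B stood at 53.7, 31.1 and 46.1 normalized counts in the high-NFMP steers and at 71.8, 127.7 and 84.8 in the low-NFMP steers. Every high-NFMP steer lay below every low-NFMP steer, and steer 3-3 was the highest. The means were 43.7 ± 11.5 and 94.8 ± 29.3 (SD, n = 3 each), a log2 fold change of -1.11 with a standard error of 0.34 and a 95% interval from -1.84 to -0.38. The adjusted p was 0.205 by edgeR and ranged from 0.0961 to 0.529 over the alternatives. Without steer 10-8 the log2 fold change was -0.90, and without steer 3-3 it was -0.84, both short of the fold change limit. The study named this gene from these same libraries, so its place here is no independent evidence.

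The other ER oxidase gene, ERO1A, which CHOP is known to induce, lay on the opposite side. It stood at 113.5, 144.5 and 129.4 against 90.9, 95.3 and 95.9 normalized counts, each high-NFMP steer above each low-NFMP steer. Its log2 fold change of 0.46 (95% interval -0.07 to 0.99) did not pass the test (adjusted p = 0.515 by edgeR). Within a steer the count of ERO1A over that of ERO1B was 2.11, 4.64 and 2.80 in the high-NFMP group and 1.27, 0.746 and 1.13 in the low-NFMP group. The mean log2 ratio thus differed by 1.56 (standard error 0.41), and an exact two-sided permutation test over the 6 steers gave p = 0.1, the smallest that 3 against 3 can give. As the 2 genes each separated the groups, in opposite directions, this p was fixed by their values and is no further evidence. This ratio was 1 of 4 chosen after the values were seen, and adjusted over the 4 its p from the exact test was 0.133. That adjustment does not correct for the choice.

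The protein disulfide isomerases, which form and rearrange disulfide bonds, did not pass the test. P4HB, which is also a subunit of the collagen prolyl hydroxylase, was counted 840.1, 905.7 and 1394 times against 861.2, 934.6 and 880.4 times after normalization, steer 10-9 alone standing above the rest. PDIA6 was lowest in that same steer (372.1, beside 584.7 to 800.1 in the other 5). PDIA3 had a log2 fold change of -0.06 (95% interval -0.53 to 0.40) and PDIA4, with few counts (21.2 to 65.1), one of -0.29 (-1.25 to 0.67).

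HSP90B1 encodes GRP94, the HSP90 chaperone of the ER. It stood at 1090, 619.0 and 504.5 normalized counts in the high-NFMP steers and at 1477, 1260 and 988.4 in the low-NFMP steers. The groups overlapped through steer 3-8, which lay above steer 10-16. Its log2 fold change was -0.75 (95% interval -1.33 to -0.17), with an adjusted p of 0.296 by edgeR that ranged from 0.0768 to 0.61 over the alternatives. The difference depended on single steers. Without steer 3-8 the log2 fold change was -1.15, past the fold change limit, whereas without steer 10-8 (-0.62), steer 10-9 (-0.53) or steer 3-1 (-0.61) the unadjusted p was no longer below 0.05.

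HSPA5 encodes BiP, the HSP70 chaperone of the ER and the gene most used as a reading of the UPR. It stood at 1833, 1897 and 2104 against 2389, 2034 and 1811 normalized counts. The groups overlapped, the highest and the lowest steer both belonged to the low-NFMP group, and the log2 fold change was -0.10 (95% interval -0.48 to 0.29). The ratio of HSPA5 to HSP90B1 counts was 1.68, 3.06 and 4.17 in the high-NFMP group and 1.62, 1.61 and 1.83 in the low-NFMP group, so that steer 3-8 was within the low-NFMP range. An exact permutation test of this log2 ratio gave p = 0.2 (adjusted over the 4 ratios, 0.2).

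CALR and CANX, the calreticulin and calnexin lectins that hold newly made glycoproteins, had log2 fold changes of 0.01 and -0.13 with 95% intervals from -0.38 to 0.39 and from -0.51 to 0.24. The co-chaperones that regulate BiP were likewise below the threshold. DNAJB9 was at -0.21, DNAJB11 at -0.26, DNAJC3 at -0.34, and HYOU1, which exchanges nucleotide on BiP, at -0.22 on the log2 fold change scale. The stress-induced ER proteins CRELD2 and MANF were at -0.47 and -0.19. CRELD2 did not overlap between the groups, with 55.7, 40.0 and 42.1 against 60.3, 65.7 and 64.6 normalized counts, but did not pass the test (adjusted p = 0.625 by edgeR). SDF2L1, a partner of DNAJB11, was at 0.41 with counts of only 13.1 to 31.4. In all, 9 of the 11 chaperone genes had a log2 fold change below 0 (48.1% of all tested genes) and 1 of the 11 was lower at an unadjusted p below 0.05 (5.74% of all tested genes).

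The sensors were compared next. EIF2AK3 (PERK) stood at 112.5, 111.1 and 94.3 normalized counts in the high-NFMP steers and at 156.9, 159.2 and 165.6 in the low-NFMP steers. The groups did not overlap, and the low-NFMP steers were within a few counts of each other. Its log2 fold change was -0.60 (standard error 0.24, 95% interval -1.10 to -0.10), a difference of 1.51-fold, with an adjusted p of 0.341 by edgeR (0.263 to 0.609 over the alternatives). The unadjusted p was no longer below 0.05 without steer 10-9 (log2 fold change -0.51), without steer 10-16 (-0.55) or with age as a term (-0.65).

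ATF6 also separated the groups, with 1161, 994.6 and 1009 normalized counts in the high-NFMP steers against 1537, 1183 and 1355. The log2 fold change was -0.36 (95% interval -0.75 to 0.02), with an adjusted p of 0.466 by edgeR. ERN1 (IRE1) was at 113.5, 152.2 and 169.5 against 165.5, 132.3 and 141.3 normalized counts, a log2 fold change of -0.01 (95% interval -0.54 to 0.51). Of the 32 genes, 4 were lower without overlap (ERO1B, EIF2AK3, ATF6 and CRELD2) and 1 was higher (ERO1A). Of all tested genes 17.1% did not overlap, 9.16% being lower and 7.97% higher.

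The transcription factors downstream of the sensors did not pass the threshold. XBP1 stood at 306.0, 353.4 and 403.2 against 435.4, 302.6 and 375.6 normalized counts, a log2 fold change of -0.07 (95% interval -0.51 to 0.38). ATF4 stood at 38813, 46291 and 41052 against 41655, 34622 and 46969, a log2 fold change of 0.03 (95% interval -0.40 to 0.47). It drew between 0.223% and 0.271% of all counts of a library and came 38th of the rows by mean count. This is an order of rows by read count, and numbers of molecules were not measured.

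DDIT3 (CHOP), the factor that links lasting ER stress to cell death, stood at 513.8, 460.1 and 707.0 against 354.1, 416.4 and 462.4 normalized counts. The groups overlapped by the near-equal values of steers 10-8 and 10-16, and steer 10-9 was the highest. The log2 fold change of 0.45 (standard error 0.21) had an adjusted p of 0.437 by edgeR. It was 0.61 without steer 10-8, 0.50 without steer 3-8 and 0.58 without steer 10-16, where the unadjusted p was below 0.05, and 0.26 without steer 10-9. Divided by the counts of EIF2AK3, those of DDIT3 came to 4.57, 4.14 and 7.50 in the high-NFMP group and to 2.26, 2.62 and 2.79 in the low-NFMP group. This log2 ratio differed by 1.03 (standard error 0.28) without overlap, with p = 0.1 by the exact permutation test, again the smallest possible, and 0.133 adjusted over the 4 ratios. EIF2AK3 separated the groups by itself, so the ratio is no separate evidence.

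Behind PERK, PPP1R15A and PPP1R15B encode the subunits that lead a phosphatase back to eIF2 and so end the block of translation. They had log2 fold changes of 0.14 (95% interval -0.31 to 0.59) and -0.21 (-0.79 to 0.37). Steer 10-9 held the lowest count of PPP1R15B, 85.2, with the other 5 between 137.9 and 169.6. TRIB3, a pseudokinase gene induced by ATF4 and CHOP, had raw counts of only 8, 3 and 1 against 4, 10 and 6. Fitted without the filter, its log2 fold change was -0.64 with a 95% interval from -2.53 to 1.24 and an adjusted p of 0.837 by edgeR.

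**Figure D2:**
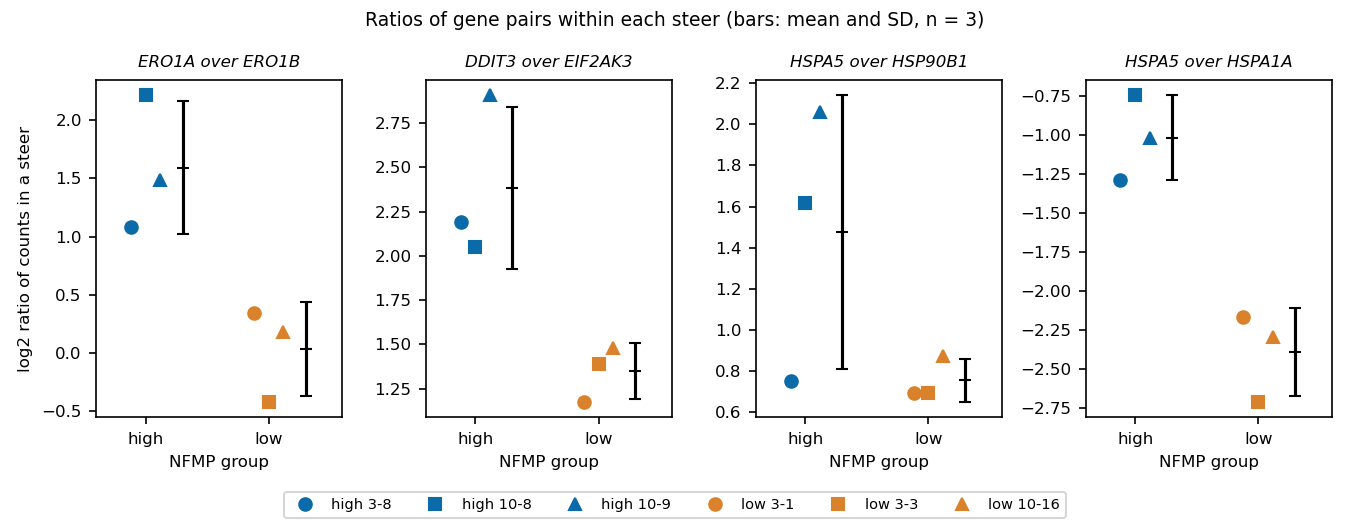
Log2 ratio of the counts of 4 gene pairs within each steer (one panel a pair, each with its own vertical axis), high NFMP in blue and low NFMP in orange, with the mean and SD of 3 steers beside the points. ERO1A over ERO1B, DDIT3 over EIF2AK3 and HSPA5 over HSPA1A separate the groups, and steer 3-8 lies among the low-NFMP steers for HSPA5 over HSP90B1.

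The genes of ER-associated degradation, which draws misfolded proteins back to the cytosol for the proteasome, did not pass the test. HERPUD1 was at 0.07 (95% interval -0.36 to 0.50), the ubiquitin ligase gene SYVN1 at 0.01 (-0.38 to 0.40) and EDEM1, which marks mannose-trimmed glycoproteins, at -0.08 (-0.94 to 0.78). SEL1L, the partner of the SYVN1 ligase, was at -0.35 (-0.78 to 0.09), with 380.0, 384.5 and 475.4 against 598.0, 556.1 and 421.0 normalized counts. For SEL1L the groups overlapped through steers 10-9 and 10-16.

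Of the translocation genes, SEC61A1, the pore subunit through which new proteins enter the ER, stood at 206.7, 155.6 and 308.9 against 155.0, 173.0 and 123.2 normalized counts. Its log2 fold change of 0.57 was the highest of the 32, with a 95% interval from -0.01 to 1.15 and an adjusted p of 0.442 by edgeR. Steer 10-9 carried much of it, and without that steer the log2 fold change was 0.28. SEC61B, another subunit of the pore, was at -0.02 (95% interval -0.53 to 0.49) and SSR1, of the complex beside it, at 0.06 (-0.36 to 0.48).

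Each gene was then placed in at most 1 arm of the UPR from general knowledge, although many targets answer to more than 1. In the ATF6 arm (ATF6, HSPA5, HSP90B1, CALR, HYOU1, PDIA4, SDF2L1, CRELD2, MANF, HERPUD1 and SEL1L), 8 of 11 genes had a log2 fold change below 0 and the median was -0.22. In the IRE1-XBP1 arm (ERN1, XBP1, DNAJB9, DNAJB11, DNAJC3, EDEM1, SYVN1, PDIA6, SEC61A1, SEC61B and SSR1) 8 of 11 were below 0 with a median of -0.07. In the PERK arm (EIF2AK3, ATF4, DDIT3, TRIB3, PPP1R15A, PPP1R15B and ERO1A) 2 of the 6 tested genes were below 0 and the median was 0.09. No gene of the 3 arms passed the p and fold change threshold, and 1 of the ATF6 arm, none of the IRE1-XBP1 arm and 1 of the PERK arm had an unadjusted p below 0.05. Of all tested genes 48.1% were below 0 and 11.5% had such a p. The arms were not tested against each other. The median of the PERK arm was -0.03 without steer 3-3 and that of the IRE1-XBP1 arm 0.02 without steer 3-1, so that neither kept its sign. That of the ATF6 arm stayed below 0 but was -0.08 without steer 3-8 and -0.15 without steer 3-1.

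**Figure D3:**
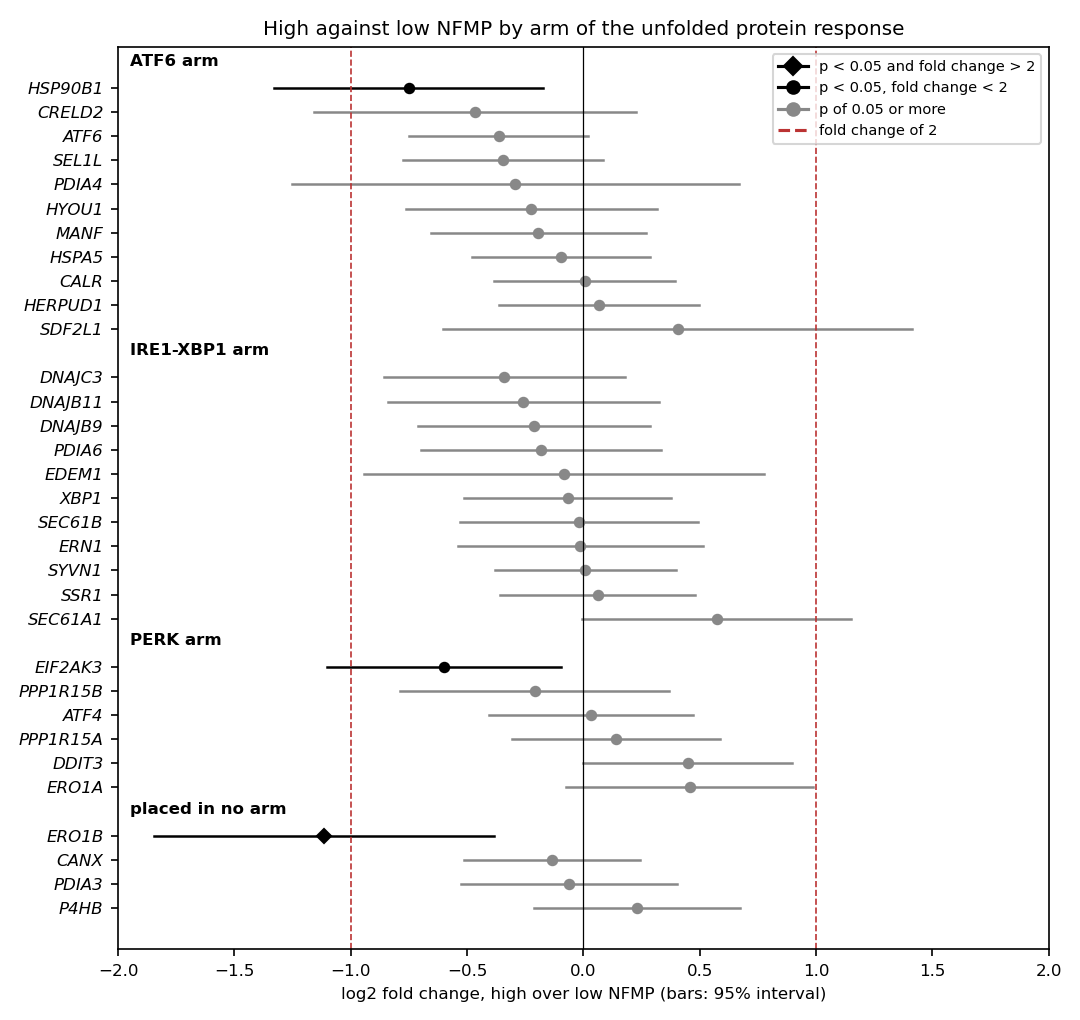
Log2 fold change (high over low NFMP) of the 32 tested genes by arm, with 95% intervals from edgeR as bars and dashed lines at a fold change of 2. ERO1B is the one gene past both limits, HSP90B1 and EIF2AK3 have intervals below 0, and the other 29 intervals include 0.

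The mean level of an arm differed between steers of the same group. Averaged over the ATF6 arm, the log2 level relative to each gene's mean was -0.10, -0.15 and -0.06 in the high-NFMP steers and 0.34, 0.08 and -0.11 in the low-NFMP steers. Steer 10-16 therefore lay within the high-NFMP range and steer 3-1 stood well above all others. Over the IRE1-XBP1 arm the values were -0.02, -0.05 and -0.02 against 0.17, -0.06 and -0.02, again with steer 3-1 on top. Over the PERK arm they were 0.04, 0.04 and -0.02 against -0.06, -0.11 and 0.12, with overlapping groups. Steer 3-1, the oldest at 37.8 months, was the highest of the 6 in 10 of the 32 genes, whereas it was the highest in 15.7% of all tested genes. With age as a term in the fit the median log2 fold change of the ATF6 arm was -0.01. The part of age in these values was not tested apart from that fit, in which age and group overlap.

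**Figure D4:**
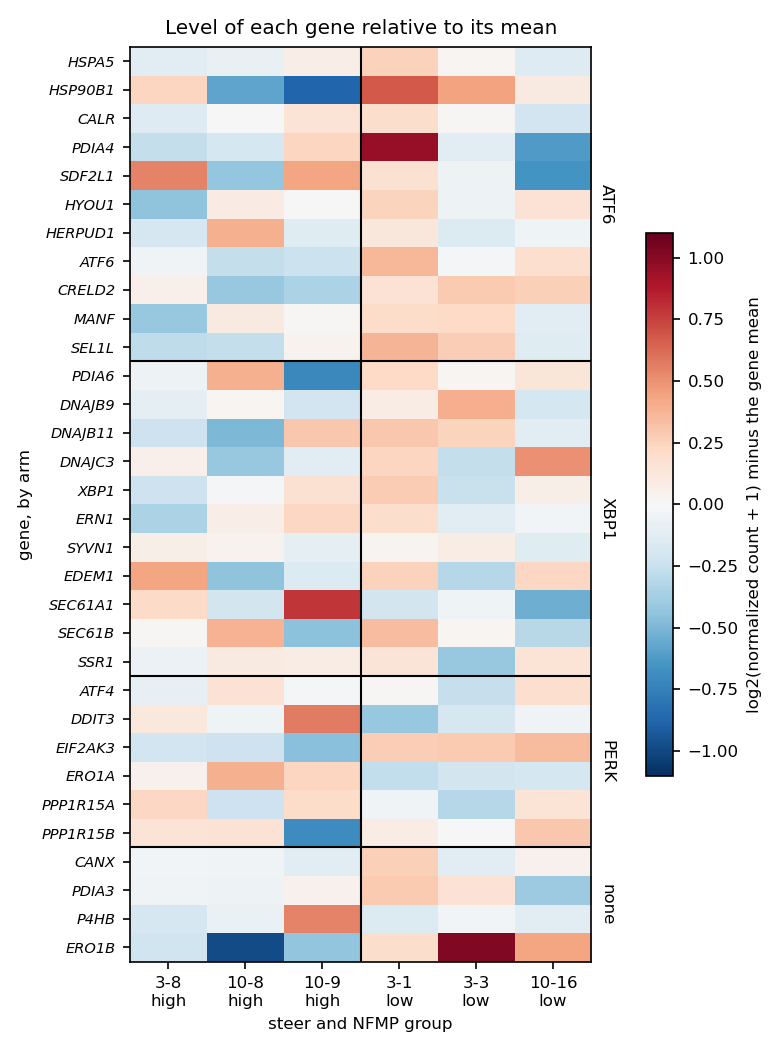
Log2(normalized count + 1) minus the mean of the gene over the 6 steers, for the 32 tested genes in rows by arm and the steers in columns (red higher, blue lower). Steer 3-1 is red over most of the ATF6 arm, and within the high-NFMP group steer 10-9 is high for SEC61A1, DDIT3 and P4HB and low for HSP90B1, PDIA6 and PPP1R15B.

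The steer labels begin with 3 or 10, a number whose meaning the labels do not give. Among the label-3 steers (1 high, 2 low) the log2 ratio of the group means was -0.89 for ERO1B, -0.33 for HSP90B1, -0.49 for EIF2AK3 and 0.42 for DDIT3, and among the label-10 steers (2 high, 1 low) it was -1.13, -0.82, -0.69 and 0.34. These 4 genes thus had the same direction within both label numbers, where no test was run. The groups did not overlap for ERO1B and EIF2AK3, so their direction was fixed in advance, and those of DDIT3 barely overlapped. The agreement of these genes is therefore no further evidence. Of the 32 genes, 13 had the same direction in both label numbers (8 lower and 5 higher) and 19 had opposite directions. Among the 19 were HSPA5 (-0.27 and 0.14) and CALR (-0.24 and 0.29). With the label number as a term in the fit to all steers, the log2 fold changes of ERO1B, HSP90B1, EIF2AK3 and DDIT3 were -1.01, -0.57, -0.59 and 0.38, with adjusted p of 0.334, 0.31, 0.442 and 0.612 by edgeR, and the first 3 genes had an unadjusted p below 0.05.

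The other genes of ER protein handling were described from 6 lists, of which 133 of 146 names were tested. Past the p and fold change threshold were 2 genes, both higher in the high-NFMP group and both in the list of further chaperones. The background was 3.9% of all tested genes, or 2.53% for higher genes alone, so 2 of 133 was not above it. FKBP10, a prolyl isomerase and collagen chaperone, stood at 30.4, 62.2 and 72.2 against 20.1, 24.1 and 15.1 normalized counts (log2 fold change 1.47, adjusted p = 0.177 by edgeR). PPIC, another prolyl isomerase, stood at 46.6, 31.1 and 36.1 against 12.4, 25.0 and 13.1 (log2 fold change 1.16, adjusted p = 0.327 by edgeR). Both were low in counts, and neither overlapped between the groups. Of the fibroblast markers given above, 4 had a log2 fold change above 0 and 2 below 0. Their sum was 12086 in steer 10-9, the highest in FKBP10, and 12467 in steer 10-16, the lowest in FKBP10. The part of fibroblasts in these values was not tested. Of the 19 genes in this list of further chaperones and glycoprotein folding enzymes, 12 had a log2 fold change above 0 and the median was 0.07. At an unadjusted p below 0.05, 3 of the 19 were higher and 1 was lower, beside 5.73% and 5.74% of all tested genes.

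In the other 5 lists no gene passed the threshold. Of 16 further oxidoreductases tested, SELENOF, a selenoprotein of the ER lumen, had the smallest p. It stood at 336.4, 377.8 and 234.7 against 507.1, 625.5 and 474.5 normalized counts without overlap (log2 fold change -0.76, adjusted p = 0.166 by edgeR). EIF2B3, a subunit of the exchange factor that phosphorylated eIF2 blocks, had the smallest p of the 20 further regulators tested (log2 fold change -0.68, adjusted p = 0.276 by edgeR).

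Downstream of ATF4 and CHOP, 21 target genes were tested, of which 11 had a log2 fold change above 0 and none an unadjusted p below 0.05 by edgeR. Their median was 0.01. The smallest p belonged to the amino acid transporter gene SLC7A1 (log2 fold change 0.54, adjusted p = 0.472 by edgeR). Of 31 further translocation, signal peptidase and oligosaccharyltransferase genes, none had an unadjusted p below 0.05 either, the smallest being that of SEC63 (log2 fold change -0.37, adjusted p = 0.531 by edgeR), and for 30 of the 31 the 95% interval lay within -1 to 1. Over the 6 lists together, 66 genes were above and 67 below 0 with a median of -0.002, and 4 in each direction had an unadjusted p below 0.05, beside 11.5% of all tested genes.

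Chaperones of the cytosol, which fold proteins outside the ER, were set beside the ER genes. Of 14 cytosolic heat shock genes, 4 (HSPA1A, HSPA6, DNAJA1 and DNAJB1) fell past the threshold and none rose, 2 of them at an adjusted p below 0.05 by edgeR, and the median log2 fold change was -0.28. Over all tested genes 1.36% were lower past the threshold and 0.685% reached that adjusted p. The study picked these 4 from the same libraries, so the count is no independent evidence of direction. HSPA1A, the inducible HSP70 of the cytosol, stood at 4473, 3184 and 4267 against 10734, 13307 and 8873 normalized counts, while its ER counterpart HSPA5 overlapped between the groups. HSPA5 over HSPA1A gave count ratios of 0.41, 0.596 and 0.493 in the high-NFMP group and 0.223, 0.153 and 0.204 in the low-NFMP group. This log2 ratio differed by 1.37 (standard error 0.23), with p = 0.1 by the exact permutation test (0.133 adjusted over the 4 ratios). HSPA1A separated the groups by itself, so the ratio is no separate evidence.

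**Figure D5:**
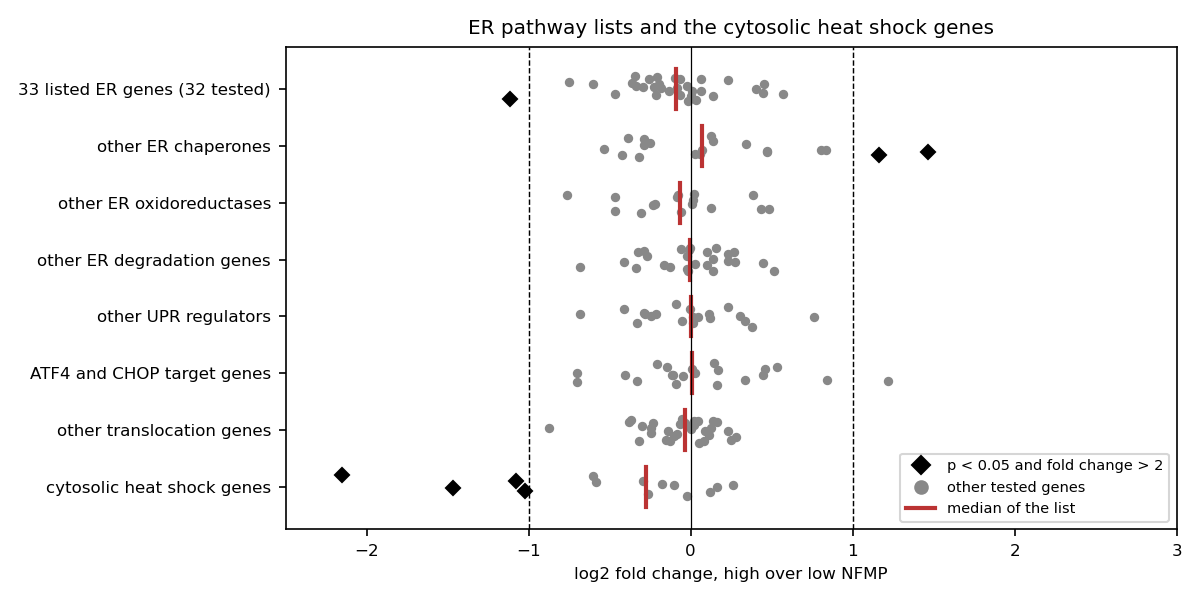
Log2 fold change (high over low NFMP) of every tested gene of the 33 ER genes, of 6 further ER lists and of the cytosolic heat shock genes, with the median of each list as a red bar and genes past the threshold as black diamonds. The medians of the ER lists lie between -0.09 and 0.07, and that of the cytosolic list at -0.28 with 4 diamonds below -1. The 2 diamonds above 1 are FKBP10 and PPIC.

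Some members share their place in the genome with other genes. By RefSeq positions on ARS-UCD2.0, where all 33 symbols were found, 10 members overlap another gene and 7 of them one whose symbol is among the counted rows. SYVN1 overlaps MRPL49, a mitochondrial ribosomal protein gene, and the normalized counts ran close together, 484.4, 475.6, 432.3, 472.7, 489.5 and 422.0 for SYVN1 beside 537.1, 525.6, 462.3, 563.6, 576.5 and 488.6 for MRPL49. The part that shared reads have in the SYVN1 values was not tested, and these are uncertain for that reason. DDIT3 overlaps MARS1 (listed as MARS), which had a log2 fold change of 0.19. MARS stood at 426.6, 391.2 and 517.5 against 319.6, 364.6 and 490.7 normalized counts. As for DDIT3, steer 10-9 was the highest and steer 3-1 the lowest. The part that shared reads have in the DDIT3 values was not tested, and these values, with the ratio built on them, are uncertain for that reason as well. For XBP1 and ERN1 the overlapping symbol is that of a tRNA, which copies elsewhere in the genome share, so no value is given for it. PDIA4, with at most 65.1 normalized counts, overlaps LOC100336368, which had between 183.7 and 290.9.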

How the data were processed

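RNA of LT from 6 steers was sequenced in 3′ mRNA libraries (named SENSE 3′ in the paper and Quant-Seq in the labels). The authors deposited raw read counts per gene symbol, whole numbers whose totals differ between libraries. The methods name Tophat2 with HTSeq in one place and Bowtie2 with unique and multiple alignments in another, on UMD3.1. The tools named with the samples are Bowtie2 and bedtools, without Tophat2 or HTSeq. Beyond that, the sources used here do not say which route gave the counts. Carcass measurements and qPCR were not analysed here.

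Counts were fitted over all genes with edgeR 4.0.16 in R 4.3.3 (filter with minimum count 10 and minimum total 15, TMM factors, robust quasi-likelihood test), leaving 15039 of 23015 rows, which held between 99.849% and 99.895% of the counts per library. Standard errors came from the F statistic and 95% intervals from the t distribution. Adjusted p-values are Benjamini-Hochberg values over all tested rows. Ratios were tested with exact permutation in scipy 1.17.1. MAN1B1 is listed in more than 1 row, and its first row was used.

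Alternatives were no filter, 10 counts in every library, RLE factors, library totals, DESeq2 1.42.0, quantile normalization of log2(count + 1) with limma 3.58.1, age or the label number in the model, and leaving out 1 steer at a time. Values within a label number, and the ratios, were added after the data were seen. The procedures were tested on simulated data. The members, arms and lists were chosen with earlier results of these data known. The text names all 33 members, those genes of the other lists past the threshold, otherwise the gene with the smallest p of a list, and, chosen after their values were seen, some counted genes that overlap a member. The gene this rule names for 1 list is not reported here.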

Additional observations from a re-analysis of the deposited data

How the results depend on the processing

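ERO1B alone of the members passed the threshold in each of the 9 fits to all 6 steers, and between 0 members (without steer 10-8 or 3-3) and 2 (without steer 3-8, when HSP90B1 passed as well) were past it with a steer left out. Between 1 (without steer 10-9) and 5 (without steer 3-8) members then had an unadjusted p below 0.05, and none had an adjusted p below 0.05 in any alternative. Over all genes, 586 passed the threshold, 969 without a filter and 364 with at least 10 counts in every library, where fewer genes were tested. With age as a term the median log2 fold change was -0.014 in the ATF6 arm and 0.18 in the PERK arm, the cause of which was not tested. With a steer left out it lay between -0.029 and 0.23 in the PERK arm and between -0.11 and 0.023 in the IRE1-XBP1 arm. In the ATF6 arm it lay between -0.31 (without steer 3-3) and -0.08 (without steer 3-8). Of 448 fits of a member under an alternative, 42 changed the sign of its log2 fold change. They belonged to 16 members, none of which was past the threshold in any fit. Library totals alone moved the median of all genes by -0.07. Genes with few counts, such as SDF2L1, PDIA4, EDEM1 and TRIB3, allow only wide intervals at this depth.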
